A study of Mus musculus with 2 samples.

Results

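The cells described here were monocytes and macrophages with little MHC class II transcript in the mouse periodontal ligament, the connective tissue that holds the tooth root in its socket. They were 56 of the 1760 barcodes kept, 50 of 1412 from the loaded side and 6 of 348 from the unloaded side. Kept barcodes showed 200 genes or more, and mitochondrial transcripts made up no more than 20% of their counts. The members were then chosen by their transcripts. The genes C1qa, C1qb, C1qc, Csf1r, Adgre1, Mrc1, Cd68 and Lyz2 had to make up at least 0.2% of the unique molecular identifiers (UMIs, each standing for 1 captured transcript), with at least 3 of the 8 detected. S100a8 and S100a9 had to stay under 2%, Col1a1, Col1a2 and Col3a1 under 1%, Cd79a at no more than 1 UMI, and the MHC class II genes Cd74, H2-Aa, H2-Ab1 and H2-Eb1 under 0.5%. Members in which Acp5 and Ctsk, the main transcripts of osteoclasts, reached 1% of UMIs are given apart. There were 2 of them, both from the loaded side, so the main values rest on 48 OTM and 6 Control members.

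The 2 libraries came from male C57BL/6J mice aged 8 weeks. In the orthodontic tooth movement (OTM) library the upper left first molar had been pulled mesially with 10 g of force for 6 days. The Control library came from the right side, which carried no load, and both pools were digested with collagenase and trypsin before droplet capture (10x Genomics 3' v3.1). Tissue of 5 mice was pooled for each library, with no replicate library. The labels do not say whether the same mice gave both sides, and a right side inside a loaded mouse is not an untreated mouse. The differences below are therefore differences between 2 libraries, and their 95% intervals cover counting error only, not the spread between mice or between cells.

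Circulating monocytes enter tissue as Ly6c2- and Ccr2-positive cells and can become macrophages, while macrophages settled in connective tissue carry complement C1q, the mannose receptor Mrc1 and transporters such as Selenop. Macrophages that take up dying cells and lipid turn on a lysosomal and lipid program with Spp1, Trem2, Gpnmb, Fabp5 and cathepsins. Osteoclasts, which resorb bone in front of a moving tooth, form from cells of the same lineage under CSF1 and RANKL, and MHC class II marks the antigen-presenting members of the family.

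The label was checked against its markers, of which the rule itself used 8 of 16, so their presence was fixed by the choice of cells. Lyz2, the macrophage lysozyme, stood at 22645 CPM (UMIs per 1000000 UMIs summed over the members) in OTM members and at 21115 CPM in Control members, with a UMI in 47 of 48 OTM and 6 of 6 Control cells. Cd68, a lysosomal membrane protein, was seen in 44 of 48 OTM and 5 of 6 Control members, Csf1r, the CSF1 receptor, in 44 of 48 OTM and 6 of 6 Control members. Of 7 markers outside the rule (Lgals3, Fcgr1, Ms4a7, Aif1, Ccr2, Ctss and Tyrobp), at least 3 were detected in 45 of 48 OTM and 5 of 6 Control members, beside 3 of 645 OTM and 0 of 135 Control collagen-rich barcodes. They summed to 9919 CPM in OTM and 5113 CPM in Control members, and Lgals3, a galectin, was seen in 40 of 48 OTM and 3 of 6 Control members. All 16 genes of a macrophage and monocyte marker list had UMIs in both libraries and together made up 39420 CPM in OTM members and 31694 CPM in Control members. Other lineages were low but not absent. Granulocyte progenitor markers summed to 1395 CPM in OTM and 1761 CPM in Control members, with 1 OTM and 0 Control members above 1% of UMIs. Of their 8 genes, Mpo, Ctsg, Ms4a3 and Cebpe had 0 UMIs in Control members. Neutrophil markers summed to 623 CPM in OTM and 1578 CPM in Control members, with Ly6g, Ngp and Ltf at 0 UMIs in both. Osteoclast markers summed to 1015 CPM in OTM and 70.4 CPM in Control members, fibroblast markers to 343 CPM in OTM and 183 CPM in Control members, and dendritic cell markers to 1902 CPM in OTM and 2226 CPM in Control members.

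The libraries differed in depth per cell and more in total. The OTM members held 1130911 UMIs with a median of 21686 a cell (816 to 77206), and the Control members 70991 UMIs with a median of 14601 (906 to 18349). A gene with no UMI could therefore lie at up to 2.65 CPM in OTM members but at up to 42.3 CPM in Control members, taking 3 UMIs as the limit. The median mitochondrial share was 2.60% in OTM and 2.85% in Control members. No barcode was shared between the libraries. Scrublet called 1 of the OTM members and 0 of the Control members a doublet, and it was kept in the main values.

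Members made up 3.54% of kept OTM barcodes (50 of 1412, exact interval 2.64% to 4.64%) and 1.72% of kept Control barcodes (6 of 348, 0.635% to 3.71%). OTM minus Control was 1.82 percentage points (-0.37 to 3.37), an interval that includes 0, and no difference was detectable at this depth. The cells that met every other part of the rule but carried MHC class II at or above 0.5% were the closest relatives. They made up 1.49% of OTM barcodes (21 of 1412) and 7.18% of Control barcodes (25 of 348). Among all barcodes of either kind, members were 50 of 71 in the OTM library (70.4%, 58.4% to 80.7%) and 6 of 31 in the Control library (19.4%, 7.45% to 37.5%). These shares follow from the limits that defined the cells and are given as a description. Because shares of 1 library sum to a whole, more cells of this kind and fewer of others cannot be told apart.

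**Figure D1:**
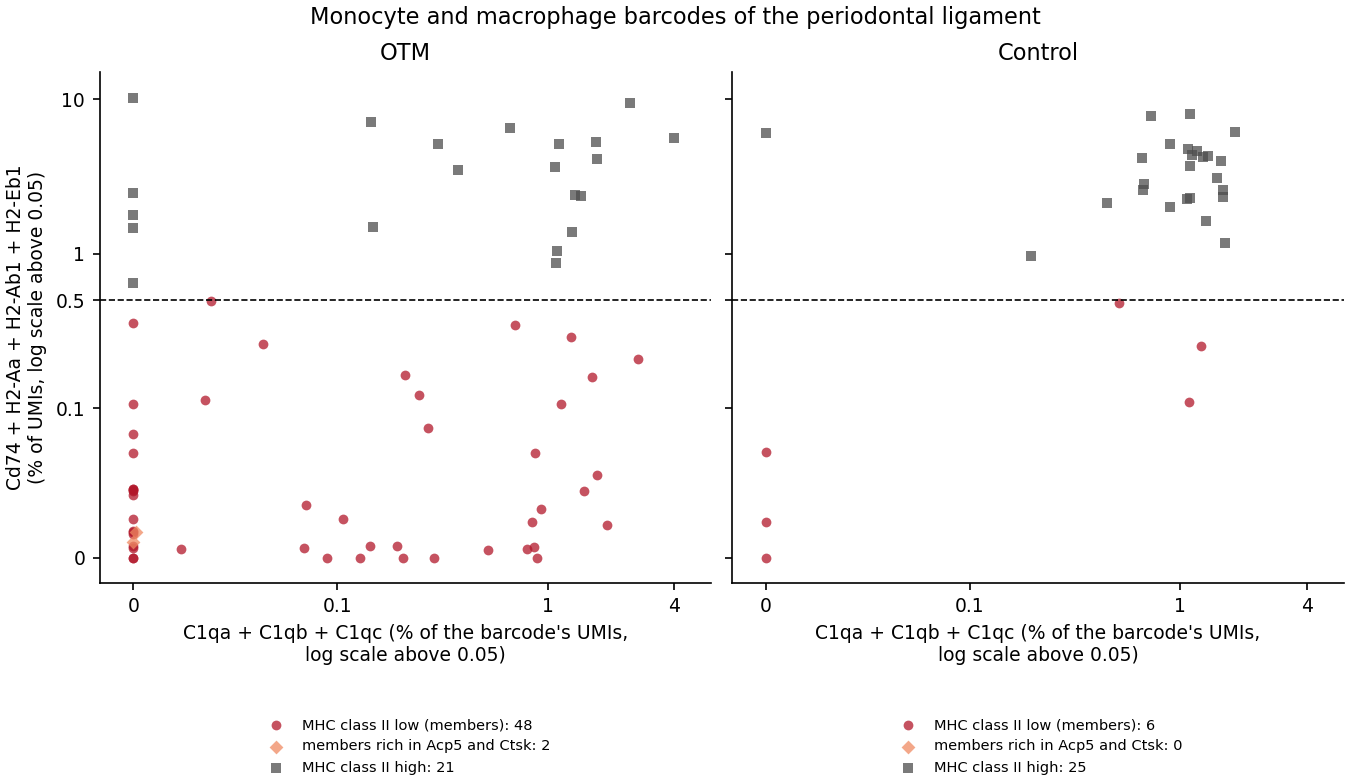
Each point is a barcode that met the monocyte and macrophage rule, with its C1q share on the horizontal axis and its MHC class II share on the vertical axis, both in percent of UMIs on scales that are logarithmic above 0.05, OTM left and Control right. The dashed line is the 0.5% limit: 50 of 71 OTM barcodes lie under it and 6 of 31 Control barcodes, and members are seen both with and without C1q.

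The MHC class II share had few barcodes near the limit. Its median over all these barcodes was 0.0516% in the OTM library (0% to 10.2%) and 2.60% in the Control library (0% to 8.08%), and 7 of 71 OTM and 3 of 31 Control barcodes lay between 0.25% and 1%. The OTM members nearest to the limit had 0.495% and 0.358%, and the OTM barcodes just outside it 0.647% and 0.878%. In the Control library the nearest values were 0.479% and 0.252% inside and 0.977% and 1.17% outside. With a C1q-rich cell set as one with at least 0.1% of UMIs from C1qa, C1qb and C1qc, 24 of 48 OTM and 3 of 6 Control members were C1q-rich, beside 16 of 21 OTM and 24 of 25 Control barcodes with MHC class II above the limit.

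The members were not of 1 kind. Those with at least 1500 UMIs, 54 cells in all, were divided into 4 sets by their variable genes, a grouping added after the data were seen. The sets are called by their leading genes, which define them and are not findings. The Ly6c2 set held 13 OTM and 3 Control cells, the Mrc1 set 8 OTM and 2 Control, the Il1rn set 4 OTM and 0 Control, and the Fabp5 set 24 OTM and 0 Control, of which the 2 Acp5- and Ctsk-rich cells are left out below. Under other clustering settings 15 of 16, 10 of 10 and 23 of 24 cells of the Ly6c2, Mrc1 and Fabp5 sets stayed together, but only 1 of 4 of the Il1rn set. With 5 Control cells above this depth, the absence of a Control cell from the last 2 sets has little weight.

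**Figure D2:**
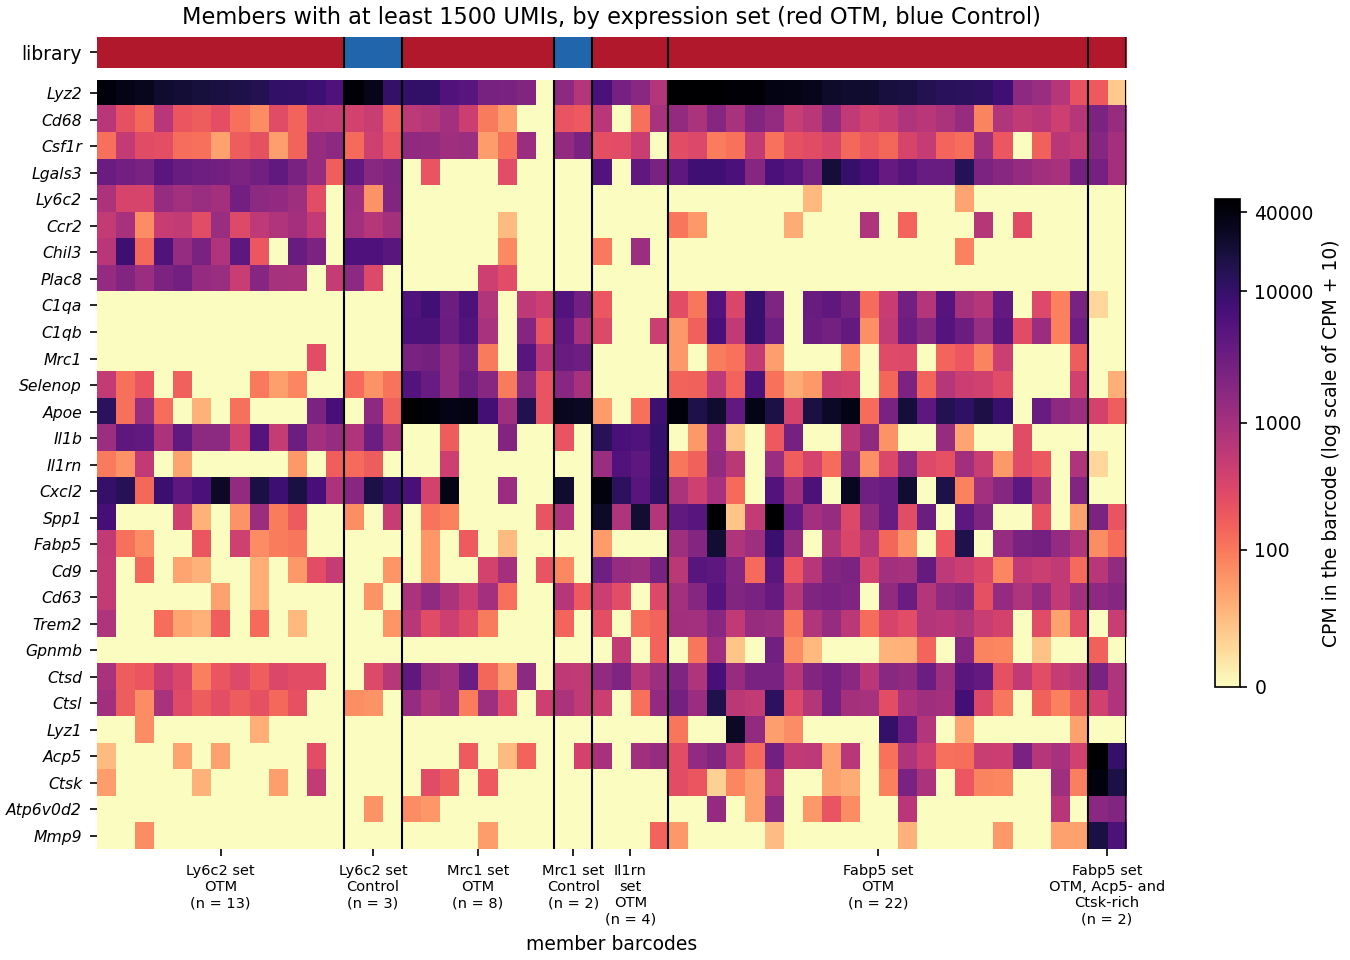
Rows are genes and columns are the 54 members with at least 1500 UMIs, grouped by set with OTM (red) left of Control (blue); the colour gives the CPM of the gene in that barcode on a log scale of CPM + 10. Ly6c2, Chil3 and Plac8 mark 1 block, C1qa, Mrc1 and Selenop another, and Cd63, Fabp5, Trem2 and the cathepsins are darkest in the Fabp5 set, while Acp5, Ctsk and Mmp9 are darkest in the 2 cells at the right.

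The Ly6c2 set had the transcripts of classical monocytes. Whether these cells lay in vessels or in the tissue was not tested. In its 13 OTM cells Ly6c2, a surface antigen of inflammatory monocytes, was seen in 12 cells with a median of 1019 CPM (0 to 2796), and Ccr2, the receptor that draws monocytes to CCL2, in 12 cells with a median of 521 CPM (0 to 1251). Plac8, another monocyte transcript, was seen in 12 of 13 at a median of 1251 CPM. C1qa had 0 UMIs in this set in both libraries. Il1b, the inflammatory cytokine that promotes bone resorption, was found in all 13 OTM cells at 408 to 5271 CPM. Chil3, a chitinase-like protein of monocytes and neutrophils, was lower in the OTM cells, with 640 UMIs and 2194 CPM over the 13 OTM cells and 281 UMIs and 5535 CPM over the 3 Control cells, a log2 ratio of -1.33 (-1.54 to -1.13). The 3 Control cells held 4632, 6006 and 6081 CPM, and the OTM cells ranged from 0 to 8741 CPM with a median of 1345 CPM, so the groups overlapped.

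Within this set the summed levels of Spp1, Ctsl and Apoe were higher in OTM, those of Spp1 and Apoe through 1 cell. Spp1, the secreted matrix protein osteopontin, had 374 UMIs and 1282 CPM in the OTM cells and 10 UMIs and 197 CPM in the Control cells. A single OTM cell held 84.5% of those OTM UMIs, and without it the OTM level was 233 CPM and the log2 ratio 0.24 (-0.74 to 1.37). The same cell held 87.1% of the OTM UMIs of Apoe, a lipid carrier. Apoe was at 2054 CPM in OTM and 591 CPM in Control cells with that cell, and at 309 CPM in OTM cells without it, a log2 ratio of -0.94 (-1.56 to -0.28), so the direction turned. Ctsl, a lysosomal protease, had 105 UMIs in OTM and 2 in Control, and 60 in OTM without that cell, a ratio with a wide interval (0.69 to 5.69 on the log2 scale). Of 20 measured genes of the lipid and lysosome list 6 passed 2-fold upward in OTM and 0 downward, beside 6.76% upward and 8.04% downward of all 2648 genes measured in these cells, and the median log2 ratio was 0.27 beside 0.14. Without that cell 1 of 16 passed upward and 0 downward, beside 6.84% upward and 7.79% downward of all 2734 genes, and the median was -0.01. A gene counts as past 2-fold where its log2 ratio is at least 1 or at most -1 and the counting interval excludes 0, and as measured where at least 3 UMIs would be seen in each library at equal levels. Cell cycle genes had a median of 1.14, and 5 of the 9 measured passed 2-fold upward, but 0 or 1 of 6 did with any 1 Control cell left out. Mki67, a marker of dividing cells, was seen in 6 of the 13 OTM cells with 49 UMIs, against 1 UMI in the 3 Control cells.

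The Mrc1 set had transcripts of settled tissue macrophages, but not in every cell. Markers of another lineage reached 0.5% of UMIs in 3 of its 8 OTM cells and 0 of its 2 Control cells, endothelial markers in 2 and fibroblast markers in 1, which was also the Scrublet doublet. These 3 cells gave 52.1% of the OTM UMIs of the set, and their part in its values was not tested beyond leaving them out. The 8 OTM cells held Apoe in all 8 (214 to 66595 CPM), Selenop, a selenium carrier, in all 8 at a median of 1737 CPM, and Mrc1 in 7 at a median of 2020 CPM (0 to 4959). Lyz2 was low here, at 4943 CPM in the OTM cells and 1398 CPM in the 2 Control cells, a log2 ratio of 1.82 (1.27 to 2.43). Several chemokines were lower in the OTM cells. Ccl2, the ligand of Ccr2, was at 695 CPM in the OTM cells and 6110 CPM in the Control cells, a log2 ratio of -3.14 (-3.55 to -2.73), and at 1435 CPM in the OTM cells without the 3 named above (-2.09). The 118 Control UMIs of Ccl2 came as 111 from 1 cell and 7 from the other. Cxcl2, a neutrophil attractant, was at 4240 CPM in OTM and 16879 CPM in Control (-1.99, -2.19 to -1.79), but all 326 Control UMIs came from that same cell and the other had 0, and without that cell the log2 ratio was 2.94. Of 14 chemokine and cytokine genes measured in this set, 8 passed 2-fold downward in OTM and 3 upward, with a median of -1.52. Of all 1184 genes measured there 9.88% passed downward and 10.6% upward, with a median of 0.25. Without the 3 OTM cells 7 of 13 passed downward and 1 upward, beside 10.3% downward and 6.51% upward of all 1137 genes, and with 1 of the 2 Control cells left out the downward count was 0 or 8. The lipid and lysosome median was 0.24, with 2 of 16 past 2-fold upward and 0 downward, and 0.68 without the 3 OTM cells, with 4 upward and 1 downward.

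The Fabp5 set was the largest, and its cells carried the lipid and lysosome program. Over its 22 OTM cells Lgals3 was seen in all 22, at 932 to 19882 CPM with a median of 4127 CPM. Cd63, a membrane protein of lysosomes and vesicles, was seen in 21 cells at a median of 1499 CPM, and Trem2, a receptor for lipids and apoptotic cells, in 21 cells at a median of 581 CPM (0 to 1826). Cd9, a tetraspanin at the cell surface, was seen in all 22 at a median of 602 CPM. Fabp5, a fatty acid-binding protein, was seen in 19 cells at a median of 959 CPM (0 to 21902). Ctsd, the aspartic protease of lysosomes, was found in all 22 at 227 to 7046 CPM. These cells also kept C1qb in 21 of 22 at a median of 2290 CPM, but Mrc1 in only 13 at a median of 59.5 CPM, and Ly6c2 in 2 with 1 UMI each.

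Spp1 in the Fabp5 set was carried by few cells. It was seen in 18 of the 22 cells with a median of 1181 CPM and a highest value of 65360 CPM. Over all 48 OTM members the cell with most Spp1 UMIs held 48.3% of them and the first 3 cells 85.5%. Fabp5 and Ctsl were as uneven, with 56.2% and 47.8% of their UMIs in 1 cell, and Gpnmb, a membrane glycoprotein of lysosome-rich macrophages and osteoclasts, with 93.5% in 3 cells. Trem2 was spread more evenly, with 24.7% in the first cell.

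**Figure D3:**
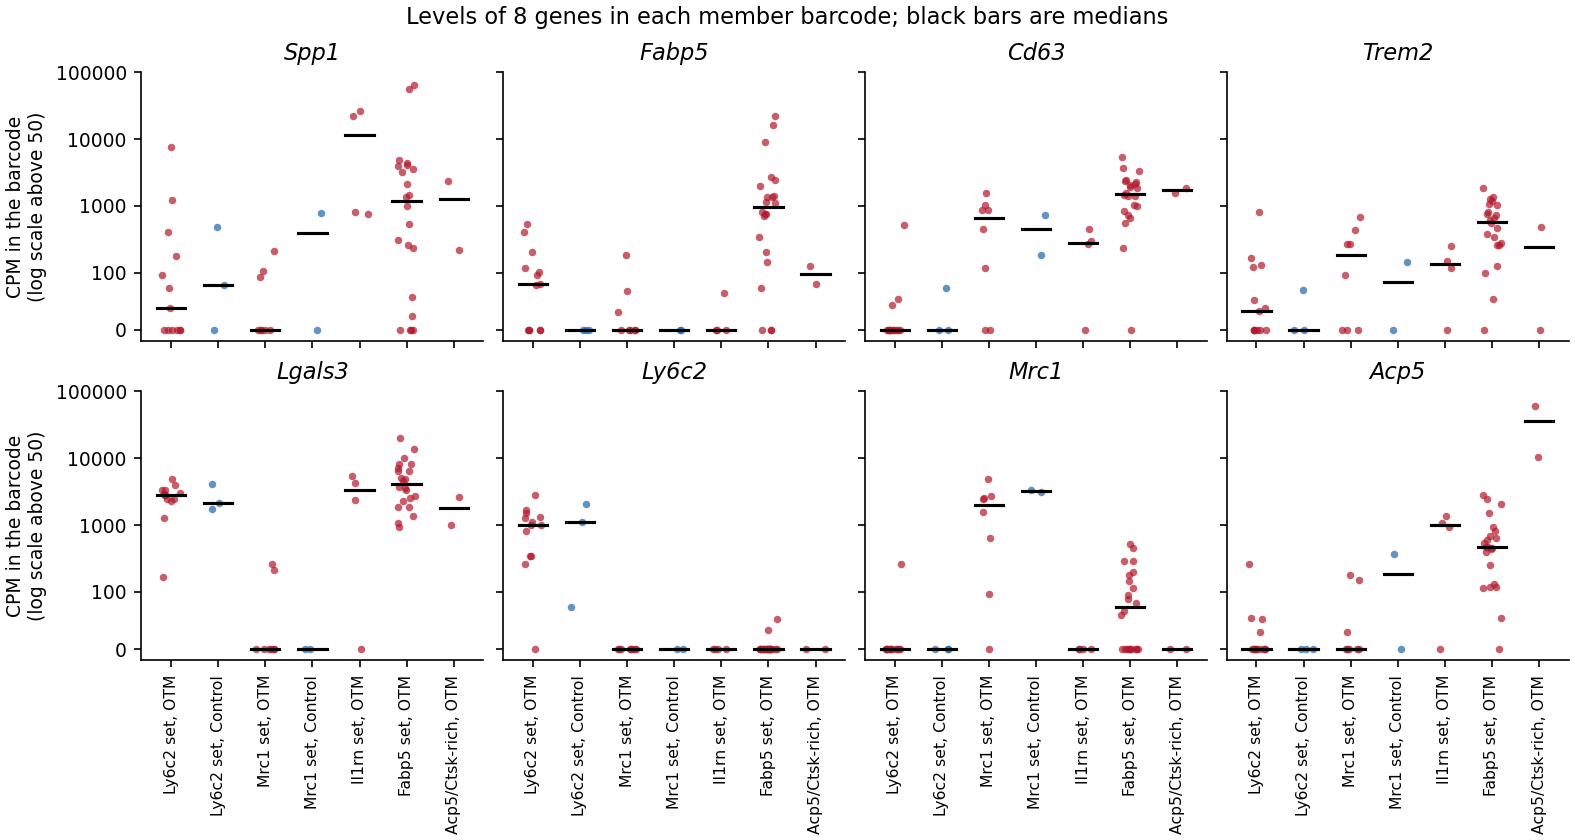
Each point is 1 member, the vertical axis gives its CPM of the gene named above the panel on a scale that is logarithmic above 50, and black bars are medians; columns are the sets with OTM (red) left of Control (blue). The medians of Cd63, Trem2 and Fabp5 are highest in the Fabp5 set of the OTM library apart from Cd63 in the 2 Acp5- and Ctsk-rich cells, and Spp1 spreads from 0 to 65360 CPM.

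The Il1rn set was 4 OTM cells with cytokine transcripts. The rule's 8 genes made up a median of 0.300% of their UMIs, close to the limit of 0.2%, beside medians of 1.58% to 2.60% in the other sets. Granulocyte progenitor markers made up 0.314% to 1.68% of UMIs in these 4 cells, a sum that is not given by gene. Whether all 4 are macrophages was not tested. Il1b lay between 5778 and 13009 CPM in them, and Il1rn, the antagonist of the IL-1 receptor, between 1237 and 9407 CPM. Spp1 was seen in all 4 (747 to 26216 CPM). Since only 1 of 4 cells kept its set under other settings, these are values of 4 cells and not of a stable group.

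Lyz1 was seen almost alone in the Fabp5 set, which held 1976 of its 1978 UMIs in the members. Lyz1 is a copy of Lyz2 that lies next to it on chromosome 10 (GENCODE M21, GRCm38: Lyz1 at 117287797 to 117292868, Lyz2 at 117277331 to 117282321, both on the minus strand). The stretches around their transcription starts, 120 bases before and 50 after, are shown from RefSeq (GRCm38.p6) because they show how alike the copies are. Capitals mark the 10 of 170 positions at which they differ when laid side by side without gaps.
Lyz1, chr10:117292819-117292988, minus strand: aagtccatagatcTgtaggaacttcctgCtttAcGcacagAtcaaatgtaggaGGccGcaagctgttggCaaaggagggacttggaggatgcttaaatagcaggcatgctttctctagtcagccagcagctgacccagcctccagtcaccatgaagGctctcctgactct
Lyz2, chr10:117282223-117282392, minus strand: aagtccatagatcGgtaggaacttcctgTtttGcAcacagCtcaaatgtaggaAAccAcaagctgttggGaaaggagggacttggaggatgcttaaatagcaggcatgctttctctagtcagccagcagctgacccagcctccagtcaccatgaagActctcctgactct
The 2 stretches shared 160 of 170 bases (94.1%). Reads of the copies can be confused wherever the transcripts are as alike, and how ambiguous reads were counted is not given in the sources used here.

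Lyz1 had 1978 UMIs in 12 of the 48 OTM members (1749 CPM) and 0 UMIs in the 6 Control members, a level at least 41.4-fold higher when the Control sum is set to 3 UMIs. A single cell held 73.0% of these UMIs and 3 cells 97.3%. Only 5 of the 12 cells had 3 or more Lyz1 UMIs, and in those Lyz1 made up at most 37.2% of the Lyz1 and Lyz2 UMIs together. Lyz2 alone did not predict it: of 16 OTM members with at least 500 Lyz2 UMIs, 9 had no Lyz1 UMI. In MHC class II high barcodes Lyz1 was at 5.87 CPM in the OTM and 0 CPM in the Control library, and in collagen-rich barcodes at 0.0574 CPM in OTM and 0 CPM in Control. Thinned to 1500 UMIs a cell, 5 of 47 OTM members (10.6%) and 0 of 5 Control members kept a Lyz1 UMI, beside 0 of 634 OTM and 0 of 128 Control collagen-rich barcodes, whose median depths before thinning were 22951 UMIs in OTM and 19291 UMIs in Control.

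The 2 Acp5- and Ctsk-rich members, both OTM, held 64468 and 101967 UMIs. They held Acp5, the tartrate-resistant acid phosphatase of osteoclasts, with 672 and 6273 UMIs, and Ctsk, the collagen-degrading protease of osteoclasts, with 1084 and 4023 UMIs. Mmp9, a gelatinase, had 403 and 1800 UMIs, Ocstamp and Dcstamp, needed for cell fusion, 16 and 31 and 8 and 58, and Oscar, an osteoclast receptor, 1 and 42. Lyz2 was low in both, with 1 and 19 UMIs, and Ly6c2, Mrc1 and C1qb had none. In the whole libraries 17 of 1412 OTM barcodes and 0 of 348 Control barcodes reached the Acp5 and Ctsk limit. A count of 0 of 348 allows a share of up to 0.862%, taking 3 barcodes as the limit, or 1.05% by the exact interval. Of these 17, 14 fell short of the macrophage limit of the rule and 1 exceeded the MHC class II limit. The 2 members had 0.231% and 0.440% of UMIs from the rule's 8 genes, close to the limit of 0.2%, while the other 15 had a median of 0.171%.

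Osteoclast transcripts were also present, at much lower levels, in the remaining members. Acp5 was seen in 31 of the 48 OTM members with 591 UMIs (523 CPM, 0 to 2821 CPM a cell, median 119 CPM) and in 1 of 6 Control members with 2 UMIs (28.2 CPM). The log2 ratio of the counts was 4.21 with an interval of 2.35 to 7.26. Ctsk had 198 UMIs in 23 OTM members and 0 in Control members, at least 4.14-fold higher. Atp6v0d2, a proton pump subunit needed for fusion, had 228 UMIs in 10 OTM members, 87.7% of them in 3 cells, against 1 UMI in Control members. Mmp9, Dcstamp, Ocstamp and Oscar were at or near 0 in these members. Mmp9 had 10 UMIs, Dcstamp and Ocstamp 3 each and Oscar 1 over the 48 OTM cells, and none in Control. Of 9 measured genes of osteoclast differentiation, Nfatc1, Atp6v0d2, Acp5 and Ctsk, 4 in all, passed 2-fold upward in OTM and 0 downward, with a median log2 ratio of 1.14, beside 9.05% upward, 10.8% downward and a median of 0.12 over the 3834 genes measured in all members. Acp5 was at 26.8 CPM in OTM and 37.2 CPM in Control collagen-rich barcodes. It lay above that level in OTM members and below it in Control members, which had 2 UMIs. Whether the level in collagen-rich barcodes is background was not tested. The part of transcripts released by osteoclasts, at 41728 CPM of Acp5 in the 2 rich members, was not tested. Thinned to 1500 UMIs, 15 of 47 OTM members (31.9%) and 0 of 5 Control members kept an Acp5 UMI, beside 4.89% of OTM and 8.59% of Control collagen-rich barcodes. So did 8 of 21 OTM (38.1%) and 3 of 25 Control (12%) MHC class II high barcodes, the Acp5- and Ctsk-rich one included. Without that barcode the osteoclast differentiation genes had a median log2 ratio of 1.15 in MHC class II high barcodes. There 5 of 14 measured genes passed 2-fold upward and 1 downward, beside 7.55% upward and 7.54% downward of all genes.

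A promoter window of Acp5 is shown because Acp5 joins the osteoclast and the lysosomal genes. Of its 3 RefSeq start windows only 1 holds the motif TCATGTGA, the M-box to which the MITF and TFE family of lysosomal regulators can bind. The stretch runs from 250 bases before to 50 after a RefSeq transcription start (GRCm38.p6), read on the strand of the gene, and capitals mark the motif, here on the opposite strand.
Acp5, chr9:22130549-22130848, minus strand: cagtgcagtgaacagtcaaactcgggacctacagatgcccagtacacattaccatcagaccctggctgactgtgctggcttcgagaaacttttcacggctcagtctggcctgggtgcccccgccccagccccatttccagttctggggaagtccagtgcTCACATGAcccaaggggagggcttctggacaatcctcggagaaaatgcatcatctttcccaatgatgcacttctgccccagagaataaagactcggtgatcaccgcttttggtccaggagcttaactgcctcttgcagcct
RefSeq gave 42 such windows for 30 of the 44 genes of the lipid and lysosome and the osteoclast differentiation lists. On either strand TCATGTGA was in 2 of the 42 (Acp5 and Grn), beside 0.986% of all 32851 windows. The related TCACGTGA was in 2 (Clcn7 and Ctsd), beside 0.974%, and GAGGAAGT, the form bound by the myeloid factor PU.1, in 1 (Spp1), beside 3.20%. The motifs do not overlap each other, and a match of letters is not a bound site.

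Over all members, genes were compared between the libraries where at least 20 UMIs were seen in the library with the higher level, in at least 5 cells and 10% of the members there, with no cell holding over 50% of them. Of 4040 such genes 338 (8.37%) were higher in OTM members by 2-fold or more with an interval above 0, and 68 (1.68%) were lower by as much with an interval below 0. The 2 directions had unequal chances: a gene higher in OTM entered from 17.7 CPM, one higher in Control only from 282 CPM and in at least 5 of the 6 cells, so 3808 genes entered as higher in OTM and 232 as higher in Control. With entry set by the UMIs expected at equal levels (3 in each library, 3834 genes), 347 (9.05%) were higher and 415 (10.8%) lower, with a median log2 ratio of 0.12. Scaling by the median of ratios in place of the total lowered every log2 ratio by 0.20 and changed the split of the 4040 genes to 239 higher and 90 lower. The 3 Control cells of the Ly6c2 set gave 50771 of the 70991 Control UMIs, while the OTM sum mixed all 4 sets. The ratios over all members therefore hold differences in the mix of cells as well as differences within them, and these cannot be told apart for the Fabp5 set, which had no Control cell.

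Genes of the lipid and lysosome program were higher over all OTM members. Of 24 genes, all measured, 16 passed 2-fold upward and 0 downward, with a median log2 ratio of 1.42, beside 9.05% higher, 10.8% lower and a median of 0.12 over all measured genes. With any 1 cell of either library left out, 12 to 17 passed upward and 0 downward. The median was 0.51 in C1q-poor members alone and 0.26 with every barcode thinned to 1500 UMIs, where 31 OTM members and 1 Control member were compared. Many of these genes are among those that led to the Fabp5 set, so the count is a description of the mix as well. Spp1 had 9067 UMIs in 32 of 48 OTM members (8017 CPM, per-cell median 196 CPM, highest 65360 CPM) and 21 UMIs in 3 of 6 Control members (296 CPM), a log2 ratio of 4.76 (4.15 to 5.45). Without the OTM cell richest in it the OTM level was 4453 CPM. Spp1 was also higher in OTM outside these cells, at 5985 CPM in OTM and 1101 CPM in Control collagen-rich barcodes and at 461 CPM in OTM and 18.2 CPM in Control barcodes rich in S100a8 and S100a9. The part of such transcripts in the members' values was not tested.

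Several other genes of the list had few or no UMIs in the 6 Control members. Cd9 had 1284 UMIs in 38 OTM members (1135 CPM) and 2 in Control members (28.2 CPM), a log2 ratio of 5.33 with an interval of 3.48 to 8.38. Trem2 had 571 UMIs in 36 OTM members and 3 in 2 Control members (3.58, 2.02 to 5.86), and it was nearly absent from collagen-rich barcodes, at 0.344 CPM in OTM and 0 CPM in Control. Fabp5 had 3011 UMIs in 31 OTM members and 0 in Control members, at least 63.0-fold higher, and at 1253 CPM without its richest cell it still stood above the 42.3 CPM limit of the Control sum. Cd63 was at 1396 CPM in OTM and 169 CPM in Control members, a log2 ratio of 3.05. It was higher in collagen-rich barcodes, at 1650 CPM in OTM and 1184 CPM in Control. The part of such transcripts in the members' Cd63 was not tested. Ctsl was at 2188 CPM in OTM and 239 CPM in Control members (3.19, 2.51 to 3.97), and Gpnmb had 278 UMIs in OTM and 0 in Control members. Apoe differed little, at 11606 CPM in OTM and 8846 CPM in Control members (0.39, 0.28 to 0.51), and Tyrobp, the signalling adaptor of Trem2, had a log2 ratio of 0.29.

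**Figure D4:**
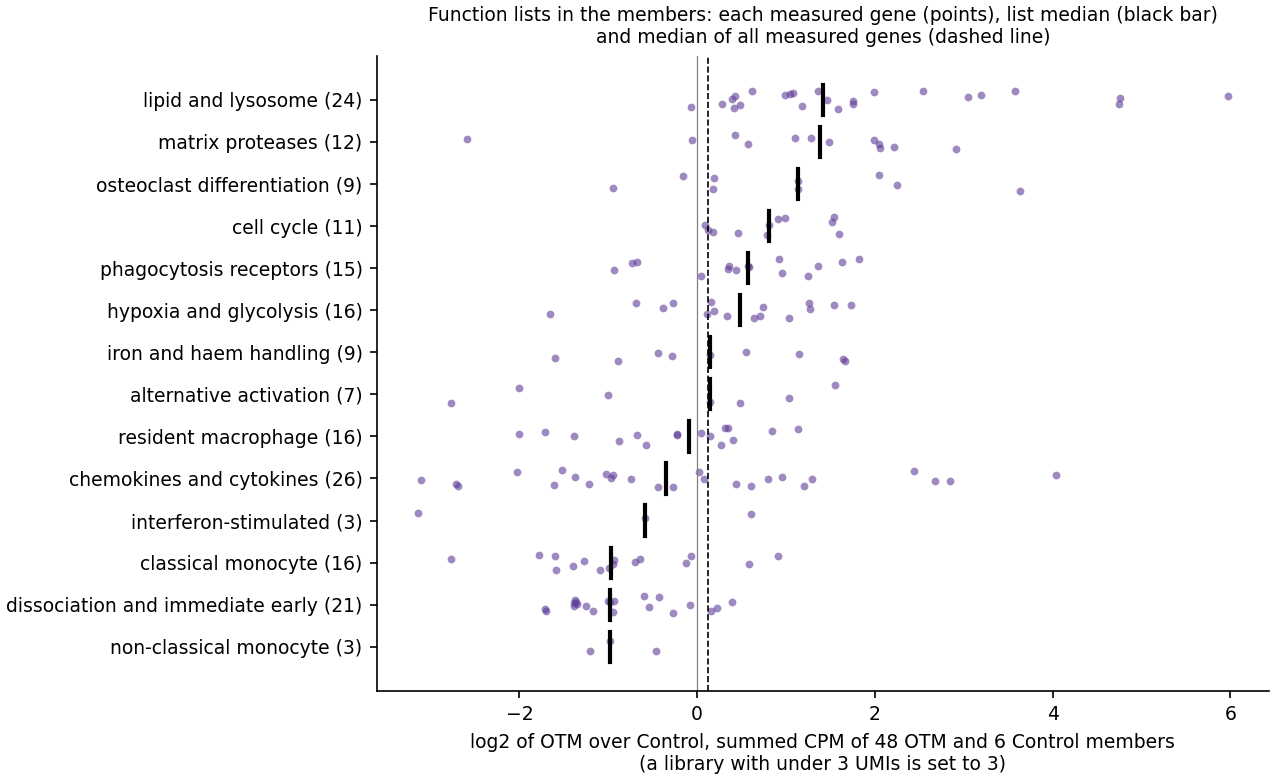
Each point is a gene of the list named at the left (number of measured genes in brackets), placed by the log2 ratio of OTM over Control summed over 48 and 6 members, with sums under 3 UMIs set to 3; black bars are list medians and the dashed line is the median of all measured genes, 0.12. The lipid and lysosome list has the highest median, 1.42, and the immediate early and monocyte lists lie lowest, near -1.

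The lipid and lysosome list was also taken within each C1q class. In the C1q-rich class the cells of the libraries fell into different sets: of 24 OTM cells 16 were in the Fabp5 set, 7 in the Mrc1 set and 1 under 1500 UMIs, and of 3 Control cells 2 were in the Mrc1 set and 1 under 1500 UMIs. In 24 OTM and 3 Control C1q-rich members 16 of 23 measured genes passed 2-fold upward and 0 downward, with a median of 1.64, beside 16.1% upward, 13.5% downward and 0.32 for all genes there. In 24 OTM and 3 Control C1q-poor members 9 of 22 passed upward and 0 downward, with a median of 0.51, beside 7.88% upward, 8.27% downward and 0.11 for all genes. The sets differed in this class too: all 3 Control cells were in the Ly6c2 set, but only 13 of the 24 OTM cells. In the Ly6c2 set alone 6 of 20 passed upward and 0 downward, with a median of 0.27. Without its cell richest in Spp1, 1 of 16 passed upward and 0 downward, with a median of -0.01. Among MHC class II high barcodes, 20 OTM and 25 Control once the Acp5- and Ctsk-rich one was left out, 6 of 22 passed 2-fold upward and 1 downward, with a median of 0.18, beside 7.55% upward, 7.54% downward and 0.10 for all genes. With 1 library a side, whether these medians differ from each other was not tested. Fabp5 was at 2662 CPM in OTM and 0 CPM in Control members, and at 176 CPM in OTM and 44.9 CPM in Control MHC class II high barcodes. Other genes are given for all 21 OTM and 25 Control barcodes of that kind. Cd9 (714 CPM in OTM, 166 CPM in Control) and Spp1 (658 and 95.5 CPM) were higher in OTM. Trem2 (253 and 233 CPM) and Cd63 (840 and 727 CPM) differed little. Thinned to 1500 UMIs, Trem2 was seen in 23.8% of OTM and 28% of Control barcodes, and Cd63 in 57.1% and 64%.

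Matrix proteases and iron storage genes were among the others that were higher. Of 12 measured genes of the matrix protease list, which also holds the inhibitor Timp2, 7 passed 2-fold upward, Timp2 among them, and 1 downward. Of all measured genes 9.05% passed upward and 10.8% downward. Mmp14, a membrane-bound collagenase, was seen in 30 of 48 OTM members with 360 UMIs and in 1 Control member with 1 UMI (log2 ratio of the counts 4.50, 2.01 to 9.81). Ctss, the protease that processes the MHC class II chaperone, was at 2573 CPM in OTM and 620 CPM in Control members (2.05, 1.63 to 2.52), although these cells were chosen for low MHC class II. Timp2, an inhibitor of matrix proteases, was at 523 CPM in OTM and 113 CPM in Control members (2.21, 1.23 to 3.43), and Mmp8, the neutrophil collagenase, was the lower one, at 39.8 CPM in OTM and 239 CPM in Control members (-2.59, -3.42 to -1.69). The ferritin chains Fth1 and Ftl1, which store iron and were seen in every member, were higher as well. Fth1 stood at 18390 CPM in OTM and 5789 CPM in Control members (1.67, 1.53 to 1.81) and Ftl1 at 11464 CPM in OTM and 5170 CPM in Control members (1.15, 1.00 to 1.30). Both genes have pseudogenes, so their counts are less certain.

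Some phagocytosis receptors and growth genes were higher. The counts here stand beside 9.05% upward and 10.8% downward of all measured genes. Of 15 measured phagocytosis receptors 4 passed 2-fold upward (Cd68, which the rule used, Msr1, Cd36 and Clec4n) and 0 downward, with a median of 0.57. Msr1, a scavenger receptor, was seen in 35 of 48 OTM members and 1 of 6 Control members (1.82, 0.44 to 3.71). Itgav, the integrin chain that binds osteopontin, had 456 UMIs in 37 OTM members and 2 in Control members (log2 ratio of the counts 3.84, 1.98 to 6.89). Igf1, a growth factor for bone and connective tissue, was seen in 21 of 48 OTM and 2 of 6 Control members (1.30, 0.15 to 2.76). Of 11 measured cell cycle genes 3 passed 2-fold upward and 0 downward, or 1 to 5 upward with any 1 cell left out. Mki67 was seen in 18 of 48 OTM and 2 of 6 Control members, and Top2a and Birc5, both needed for mitosis, in 10 and 13 of 48 OTM members with 0 UMIs in Control members. For hypoxia and glycolysis 4 of 16 passed 2-fold upward and 1 downward, and the median was 0.49.

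Monocyte genes were lower over all OTM members. Of 16 classical monocyte genes 7 passed 2-fold downward and 0 upward, with a median of -0.97, beside 10.8% downward and 9.05% upward of all measured genes. Chil3 was at 581 CPM in OTM and 3958 CPM in Control members (-2.77, -2.97 to -2.56), Ccr2 at 188 CPM in OTM and 648 CPM in Control members (-1.78, -2.25 to -1.29), and Ly6c2, which has a near-identical neighbour in Ly6c1, had a log2 ratio of -1.40 (-1.81 to -0.97). Within the Ly6c2 set the list had a median of 0.11, and 2 of 16 genes passed 2-fold upward and 2 downward, with Ly6c2 at 1152 CPM in OTM and 1103 CPM in Control cells. Cells of the Ly6c2 set were 13 of the 47 grouped OTM members and 3 of the 5 grouped Control members.

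Chemokines went in both directions. Of 26 measured chemokines and cytokines 6 passed 2-fold upward and 9 downward, beside 9.05% upward and 10.8% downward of all measured genes. With 1 Control cell left out 4 to 8 passed upward and 2 to 10 downward. In the Ly6c2 set 3 of 16 passed upward and 1 downward (median 0.41), beside 6.76% upward and 8.04% downward of all genes there. In C1q-poor members 6 of 19 passed upward and 1 downward (median 0.37), beside 7.88% upward and 8.27% downward. In C1q-rich members 2 of 17 passed upward and 9 downward (median -1.16), beside 16.1% upward and 13.5% downward. The Mrc1 set had the 8 downward given above. Cxcl1, a neutrophil attractant, had 783 UMIs in 20 of 48 OTM members (692 CPM) and 0 in Control members, at least 16.4-fold higher, while its relative Cxcl2 was at 7075 CPM in OTM and 11875 CPM in Control members (-0.75, -0.85 to -0.64). Il1rn had 574 UMIs in 31 OTM and 5 in 2 Control members (2.85, 1.62 to 4.48), and Il1b was at 1304 CPM in OTM and 1240 CPM in Control members, a log2 ratio of 0.07 (-0.24 to 0.40). Ccl2 was at 693 CPM in OTM and 1986 CPM in Control members (-1.52, -1.78 to -1.25), but 58.2% of the OTM UMIs came from 1 cell. Ccl4, a chemokine for monocytes and T cells, was at 1219 CPM in OTM and 2479 CPM in Control members (-1.02, -1.25 to -0.79). Without 1 Control cell the log2 ratio was 0.40 for Ccl2 and 1.03 for Ccl4, so each direction rests on 1 Control cell, and both also turned with MHC class II limited to 0.25%, which leaves 4 Control members. Ccl5 rested on few cells, 4 OTM and 1 Control.

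Immediate early genes were lower in OTM members. Of 21 measured genes of dissociation and immediate early response 10 passed 2-fold downward and 0 upward, with a median of -0.99, beside 10.8% downward and 9.05% upward of all measured genes. Within the sets fewer did. In the Ly6c2 set 1 of 20 passed downward and 1 upward (median -0.42), beside 8.04% downward and 6.76% upward of all genes there. In the Mrc1 set 5 of 19 passed downward and 1 upward (median -0.31), beside 9.88% downward and 10.6% upward. Without its 3 OTM cells with other markers 7 of 20 passed downward and 1 upward (median -0.59). In the C1q classes, which mix sets, 9 of 18 passed downward and 0 upward in C1q-rich members (median -1.19). In C1q-poor members 2 of 21 passed downward and 1 upward (median -0.41). Egr1, a transcription factor switched on within minutes, was at 469 CPM in OTM and 1535 CPM in Control members (-1.71, -2.01 to -1.40), Junb, a part of AP-1, at 1446 CPM in OTM and 3254 CPM in Control members (-1.17, -1.37 to -0.97), and Atf3, a stress-response factor, at 309 CPM in OTM and 1000 CPM in Control members (-1.70, -2.07 to -1.31). Without 1 Control cell the log2 ratio of Atf3 was 0.05, and with MHC class II limited to 0.25% it was above 0 as well. Egr1 went both ways within the sets, at -1.82 in the Ly6c2 set and 1.21 in the Mrc1 set. MHC class II high barcodes without the Acp5- and Ctsk-rich one had the same list at a median of -1.04 in OTM over Control. There 12 of 22 genes passed 2-fold downward and 0 upward, beside 7.54% downward and 7.55% upward of all genes. Since enzyme digestion can switch these genes on, tissue handling and load cannot be told apart for them.

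Among the 4040 genes that met the entry limits given above, with mitochondrial, ribosomal, sex-linked, Gm and Rik genes and markers of other cell types left out, the 12 lowest ratios were those of Kansl1l (-2.32), Arhgap15 (-2.30), Stk40 (-2.20), Sptan1 (-2.16), Irak2 (-2.08), Ppm1h (-2.07), Mbnl1 (-1.94), Cdk8 (-1.85), Tle4 (-1.80), Cmss1 (-1.78), F13a1 (-1.71) and Mycbp2 (-1.71). F13a1 encodes a coagulation factor chain made by monocytes and macrophages, Irak2 is a kinase of Toll-like and IL-1 receptor signalling, and Mbnl1 is a splicing regulator. F13a1 was at 408 CPM in OTM and 1338 CPM in Control members. Gm42418, a non-coding transcript, moved the same way, at 5886 CPM in OTM and 12945 CPM in Control members (-1.14), and Malat1, a nuclear non-coding RNA, was at 9093 CPM in OTM and 10114 CPM in Control members. Their part in the list was not tested. Isg15, an interferon-induced gene, was at 63.7 CPM in OTM and 563 CPM in Control members (-3.15, -3.72 to -2.55), and 37 of its 40 Control UMIs came from the Mrc1 set. Without 1 Control cell the log2 ratio of Isg15 was 0.28.

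Among the rule's own genes, given as a description only, Mrc1 and Csf1r were lower and C1qb and Cd68 higher in OTM members. Mrc1 was at 229 CPM in OTM and 916 CPM in Control members, Csf1r at 287 CPM in OTM and 676 CPM in Control members, C1qb at 2044 CPM in OTM and 930 CPM in Control members, and Cd68 at 700 CPM in OTM and 296 CPM in Control members. The log2 ratio of Mrc1 was -0.46 without 1 Control cell and 1.95 with MHC class II limited to 0.25%, and the log2 ratio of C1qb was -1.37 after thinning, where 1 Control member was left. The 3 other macrophage genes C1qa, C1qc and Adgre1 lay within 2-fold. Of 16 measured genes of the resident macrophage list 1 passed 2-fold upward (C1qb) and 3 downward (Mrc1, F13a1 and Maf), near the 9.05% upward and 10.8% downward of all measured genes, and the median was -0.09. Timd4, a receptor of long-lived resident macrophages, had 0 UMIs in both libraries and Lyve1, found on perivascular macrophages, 1 UMI in OTM members.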

How the data were processed

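The deposited matrices of 2 libraries held raw counts of UMIs for every gene and barcode, which the authors produced using Cell Ranger (version 7.0.1), per the file headers. Seurat and the builds GRCm38 and mm10 appear in the submitters' processing notes. Any cell filter of theirs is not given in the sources used here. Barcodes were filtered and members chosen as the report states. Counts were summed over members per library and given as CPM. Shares have exact Clopper-Pearson intervals, differences of shares Newcombe intervals, and log2 ratios the exact interval of a conditional binomial (scipy 1.17.1), at 95%. No p-value was computed, since there was 1 library per group. Sums under 3 UMIs were set to 3 in list medians. Intervals and floors cover counting error only. The procedure was tested on simulated data.

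Named genes were the 12 highest and 12 lowest log2 ratios among eligible genes (at least 20 UMIs, 10% of members and 5 cells in the higher library, no cell with over 50% of the UMIs, and none of the mitochondrial, ribosomal, Gm, Rik, sex-linked genes or markers of other types), the rule's genes, up to 5 genes per function list and the 15 most abundant. Other named genes were chosen after their values were seen. The members, the 15 function lists and the 16 marker lists were chosen with earlier results of these data known. Members with at least 1500 UMIs were clustered by Ward linkage (scikit-learn 1.9.0, scanpy 1.11.5). Alternatives covered filters, limits, doublets, other lineages, depth, scaling and single cells. Leaving out any 1 cell, and cells with markers of other lineages within a set, was added after the data were seen. Gene positions came from GENCODE M21, in which 32235 of 32285 identifiers were found.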

Additional observations from a re-analysis of the deposited data

How the results depend on the processing

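The share of members was 1.04 to 2.07 points higher in OTM under 9 other settings. Its interval excluded 0 with MHC class II under 0.25% (2.04 points, 0.08 to 3.38) and with barcodes thinned to 1500 UMIs (2.07, 0.39 to 3.09), and included it in the main value and the other settings. The count for genes at least 2-fold higher, 338, was 166 in C1q-rich members alone, 201 in C1q-poor members alone, 4 after thinning, where 31 OTM members and 1 Control member were compared, and 1066 with no MHC class II limit, a setting added after seeing the data. The count for genes at least 2-fold lower, 68, was 20 with at least 500 genes and at most 10% mitochondrial counts, 15 without the deepest member of each library, 111 from 10 UMIs, 108 from 2 cells and 387 with no MHC class II limit (the last 2 added after seeing the data). It could not be given where fewer than 5 Control members were left. Direction reversed with MHC class II under 0.25%, which leaves 4 Control members, for the log2 ratio of Mrc1 (1.95), log2 ratio of Ccl4 (0.82), log2 ratio of Ccl2 (0.77), log2 ratio of Klf4 (0.10), log2 ratio of Isg15 (0.062) and log2 ratio of Atf3 (0.11). It reversed for the log2 ratio of Clec4n as a mean over cells (-0.19), the log2 ratio of Atf3 in C1q-poor members (0.18), the log2 ratio of C1qb after thinning (-1.37) and, with no MHC class II limit, for the log2 ratio of C1qb (-0.69), log2 ratio of Hp (0.66) and log2 ratio of Blvrb (-0.31). Beyond the members compared, the cause was not tested. The lipid and lysosome median, 1.42, was 0.26 after thinning and 0.51 in C1q-poor members, and 1.02 to 1.64 under the other settings. The 6 Control members limit every ratio. No paired analysis was possible because each group was 1 library.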
